A study of Homo sapiens with 6 samples.

Results

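The transcripts described here are the unnamed ones of chromosomes 7, 14 and 21: transcript clusters whose identifier places them on one of these chromosomes and for which the array's annotation lists no gene symbol. A transcript cluster is the set of probes that the array reads together as 1 transcript. The chromosomes were chosen from the same comparison, because genes with a symbol on them had shown runs of rises, so the direction per chromosome is a description and was not tested. A transcript was kept when, on 3 or more of the 6 arrays, it was brighter than the median feature. This kept 1641 of 4324 unnamed transcripts (37.9%): 884 of 2192 on chromosome 7, 493 of 1378 on chromosome 14 and 264 of 754 on chromosome 21. The table as a whole held 33345 transcript clusters that met the same condition, 15477 of them unnamed.

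The study compared 3 arrays of U87 MG cells with stable overexpression of GUCY1B3 with 3 arrays of control U87 MG cells. U87 MG is an established line from a human glioblastoma. The stable cells had been transfected with GUCY1B3 in a pCDNA3.1D/V5-His-TOPO plasmid, and the control was the parent line. All cells were untreated and grown in DMEM with serum. The labels name no line with an empty plasmid, do not say how many stable clones were used, and do not say whether replicates were separate cultures, so the p-values measure only how the arrays spread, and that spread may be technical. An effect of GUCY1B3 and other differences between the stable and the parent cells cannot be told apart. In such bulk RNA, more cells with a transcript and more transcript per cell cannot be told apart either.

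Arrays such as this carry probes for several kinds of transcript without a gene name. They include long noncoding RNAs, antisense transcripts, stretches within or beside known genes, and copies of repeated sequence. Most long noncoding RNAs of human cells are present at lower levels than protein-coding mRNAs, and some act on the genes beside them while others are by-products of transcription nearby. GUCY1B3 itself, now named GUCY1B1, encodes the beta subunit of soluble guanylate cyclase, the enzyme that makes cGMP in response to nitric oxide.

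The members were not laid out in 1 run along each chromosome. On each chromosome the identifiers fell into a first block and a second block, and in both the genes with a symbol followed their RefSeq order. Among those with a known strand, 99.4% of the genes in the first block of chromosome 7 lay on the plus strand and 0.309% of those in the second block did. The remaining block held few genes with a symbol, and its order along the chromosome is not known here. It held 515 of the 884 members on chromosome 7, 237 of 493 on chromosome 14 and 168 of 264 on chromosome 21. Positions below are therefore given as the nearest genes in identifier order, for the first and second blocks only, with no distance. Base positions of the members on a named build were not used here.

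The values are log2 RMA values, so a difference of 1 is a doubling. The targeted gene was higher in the overexpressing cells. GUCY1B1 read 8.10, 8.18 and 8.40 on the overexpression arrays, against 7.45, 7.70 and 7.49 on the control arrays (difference 0.68, limma adjusted p = 0.0110). All 8 glioma or mesenchymal markers checked lay above the array median, with overexpression means from 5.30 (SOX2) to 12.15 (VIM, the intermediate filament vimentin). Of 12 markers of immune, endothelial, epithelial and neuronal cells, 7 also lay above the array median on 3 or more arrays, with overexpression means over all 12 from 3.39 (PTPRC, a leukocyte marker) to 6.60 (SNAP25, a synaptic protein), so this check does not separate the lists. The array medians over all features were 5.03, 4.97 and 5.02 on the overexpression arrays, against 5.01, 4.97 and 4.98 on the control arrays. Overexpression array 2 stood apart from its group: the median unnamed transcript lay lower on it than on the other overexpression arrays by 0.050 on chromosome 7, 0.045 on chromosome 14 and 0.054 on chromosome 21. On the other chromosomes it lay lower by 0.043. The part of this array and of the array medians in the results was not tested beyond the counts given without each array and with centred arrays.

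Some members do not measure a transcript of their own. Of the 1641, 88 had the same 6 values as at least 1 other transcript cluster, and these 88 held only 34 distinct profiles. For 58 of them a copy carried the code of another chromosome, so their signal cannot be placed on chromosome 7, 14 or 21. The profile of TC21000019.hg.1 was shared by 34 clusters under 11 chromosome codes, unplaced sequence included, and 4 members had it (TC14000013.hg.1, TC14000019.hg.1, TC21000003.hg.1 and TC21000019.hg.1). The profile of TC14000023.hg.1 was shared by 22 clusters, 6 of them members on chromosome 14 and 2 on chromosome 21, and that of TC07000429.hg.1 by 8 members, all on chromosome 7. No member of the remaining blocks had such a copy.

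Across the 3 chromosomes, more unnamed transcripts were called higher than lower. At a limma adjusted p under 0.05 over all 33345 transcript clusters, 101 of the 1641 members were higher in the overexpressing cells (6.16%) and 13 were lower (0.792%). Over all transcript clusters tested, 5.84% were called, 3.54% higher and 2.29% lower. Among the 13577 unnamed transcripts of the other chromosomes, 352 were higher (2.59%) and 252 lower (1.86%). The median member differed by 0.05, with a positive difference in 65.2% of members. The median was 0.03 over all transcript clusters tested (59.3% positive) and 0.03 for unnamed transcripts elsewhere (58.5% positive). For 310 members (18.9%) all 3 overexpression arrays lay above all 3 control arrays, and for 76 (4.63%) all lay below. Over all transcript clusters these shares were 15.4% and 9.76%. Since the chromosomes were chosen on this comparison, nothing is read from these counts against those of the whole table. When each array was centred on the median of the tested transcripts of the same chromosome, named genes included, the members' split became 43 higher and 18 lower, and 70.5% of the calls were higher, against 88.6% without this centring. The whole table evened out too, with 634 clusters higher and 634 lower under it (1.9% each), an even split, against 60.7% of calls higher without it.

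The counts depended on single arrays. Without overexpression array 1, 2 or 3, the numbers of members called higher were 29, 17 and 31. They were 40, 64 and 187 without control array 1, 2 or 3. The numbers called lower were 5, 4 and 4 without an overexpression array and 7, 7 and 55 without a control array. Of the 114 members called with all arrays, 19 were also called without each of the 6 arrays in turn, and all 114 kept their sign. An ordinary equal-variance test per transcript, with no moderation of the spread, called 11 of them. Over all transcript clusters it called 0.606% higher and 0.357% lower. The whole table moved as well: 250, 199 and 322 clusters were higher without overexpression array 1, 2 or 3, and 412, 629 and 2428 without control array 1, 2 or 3.

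Chromosome 21 had the highest share of rises and no fall past the threshold. Of its 264 members, 23 rose (8.71%) and 0 fell by limma's adjusted p. At an unadjusted p under 0.05 there were 61 higher and 4 lower, beside 12.2% and 8.12% over all transcript clusters tested, and the ordinary test called 2 higher and 0 lower. The median difference was 0.08, with members between −0.47 and 1.21, and 68.9% of differences were positive. Among its 189 tested genes with 1 symbol, 34 were higher (17.99%) and 1 lower (0.529%), with a median of 0.12. Over all transcript clusters tested, limma called 3.54% higher and 2.29% lower. For 66 members (25%) the 3 overexpression arrays all lay above the 3 control arrays, and for 7 (2.65%) all lay below. Those shares were 15.4% and 9.76% over all transcript clusters tested. Without the members whose values are repeated elsewhere, a choice made after seeing the data, 21 were higher and the median was 0.06.

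Chromosome 14 came next. Of its 493 members, 37 rose (7.51%) and 7 fell (1.42%), and the median difference was 0.05, within a range of −0.73 to 1.03. Groups did not overlap for 103 members that were higher (20.9%) and for 24 that were lower (4.87%). Over all transcript clusters tested these shares were 15.4% and 9.76%. Its 543 genes with 1 symbol had 66 higher (12.15%), 11 lower (2.03%) and a median of 0.05. The shares called over all transcript clusters tested were 3.54% higher and 2.29% lower. Without repeated values, 35 members were higher and 7 lower.

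On chromosome 7, 41 of 884 members rose (4.64%) and 6 fell (0.679%), with a median of 0.04 and a range of −1.12 to 1.39. Groups did not overlap for 141 members that were higher (15.95%) and for 45 that were lower (5.09%). Over all transcript clusters tested these shares were 15.4% and 9.76%, so the share that was higher lay near that of the whole table. Its 755 genes with 1 symbol had 88 higher (11.66%) and 14 lower (1.85%), and their median of 0.07 was above that of the members. The shares called over all transcript clusters tested were 3.54% higher and 2.29% lower. Chromosome 7 therefore held the most members called higher by number and the smallest share of the 3 by percent.

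Set beside the 20 other chromosomes, the unnamed transcripts of 21, 14 and 7 had the 3 highest medians, although chromosome 10 (0.043) could not be separated from chromosome 7 (0.043). The other medians lay between −0.007 on chromosome 15 and 0.043 on chromosome 10. The share called higher was 1.15% to 3.77% on the other 20 chromosomes. The share of positive differences did not rank the same way. It was 66.53% on chromosome 22 and 66.51% on chromosome 10, above chromosomes 7 (64.59%) and 14 (64.30%). The medians of genes with 1 symbol, on which the chromosomes were chosen, ranked 21, 7 and 14.

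**Figure D1:**
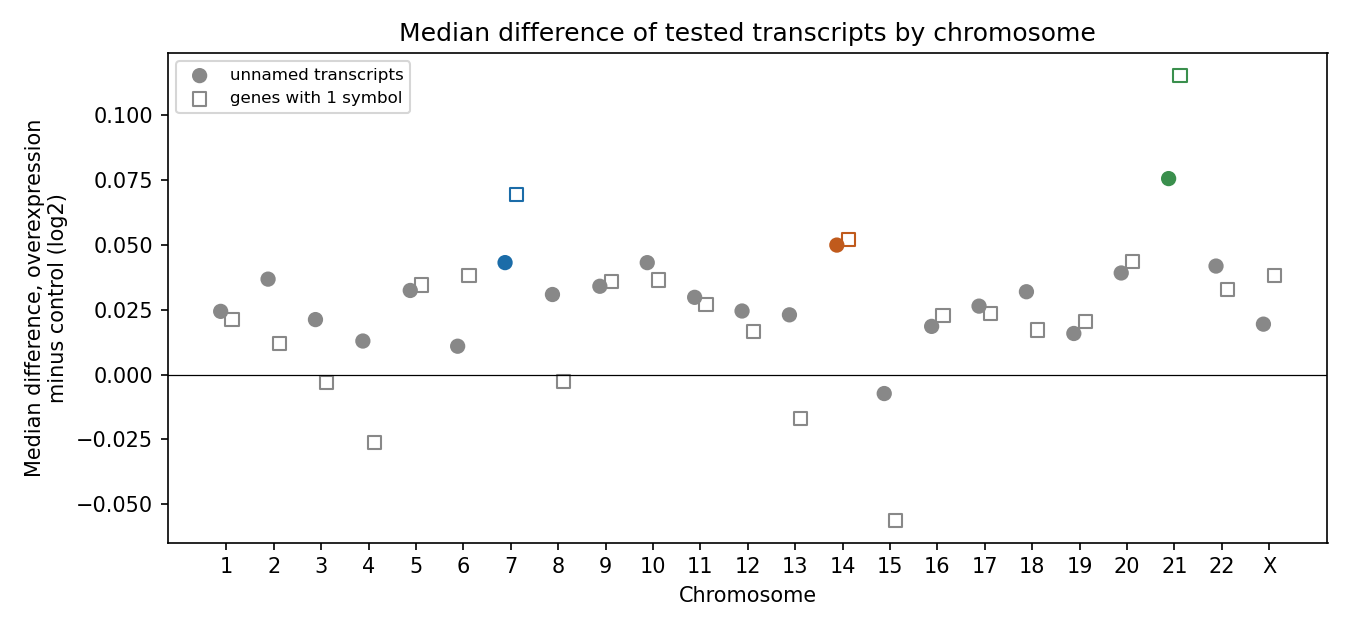
Median difference of tested transcripts on each chromosome, overexpression minus control on the log2 scale (y axis), for unnamed transcripts (filled circles) and genes with 1 symbol (open squares); chromosomes 7, 14 and 21 are coloured. The unnamed transcripts of chromosome 21 have the highest filled circle (0.076), chromosome 14 follows (0.050), and chromosomes 7 and 10 lie together at 0.043.

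The shift was not equally present on all arrays. Relative to the mean of the 6 arrays, the median chromosome 21 member lay at 0.067, −0.002 and 0.066 on the overexpression arrays, against −0.014, −0.058 and −0.040 on the control arrays. On chromosome 14 the values were 0.049, 0.000 and 0.040 on the overexpression arrays, against −0.003, −0.041 and −0.033 on the control arrays. On chromosome 7 they were 0.049, −0.012 and 0.045 on the overexpression arrays, against −0.003, −0.030 and −0.033 on the control arrays. Overexpression arrays 1 and 3 were thus above all control arrays on each of the 3 chromosomes. Overexpression array 2 was near control array 1, below it on chromosome 7 and above it on chromosomes 14 and 21. On the unnamed transcripts of the other chromosomes the range was smaller, at 0.034, −0.021 and 0.024 on the overexpression arrays, against 0.005, −0.025 and −0.022 on the control arrays. Overexpression array 2 lay below control array 1 there too.

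**Figure D2:**
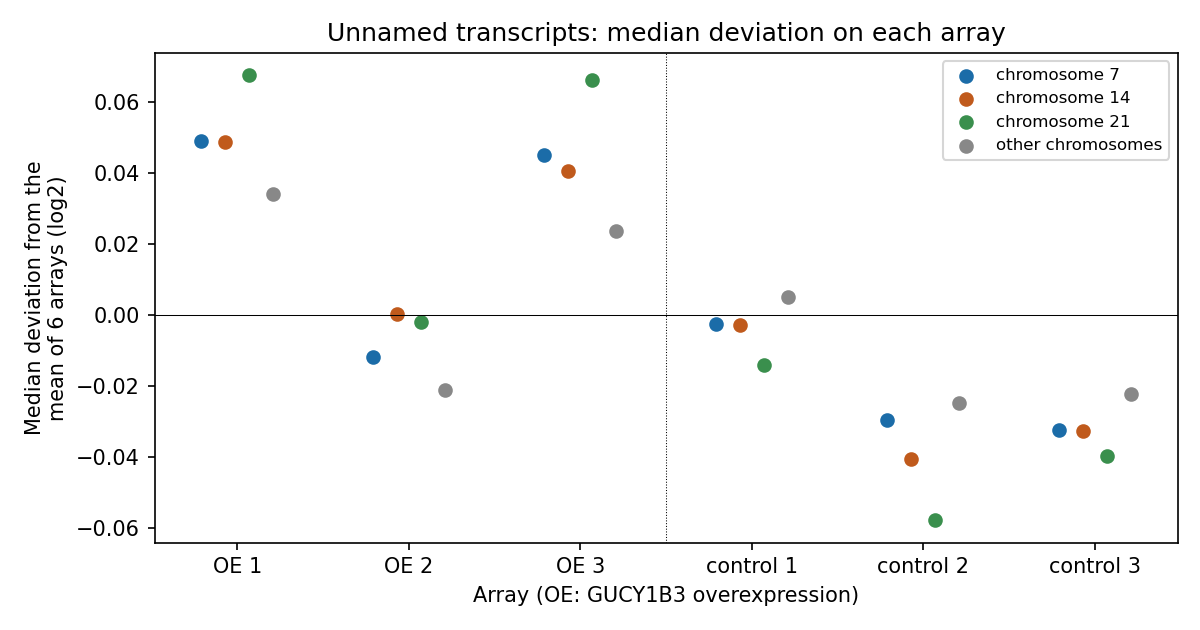
Median deviation of unnamed transcripts from their mean over the 6 arrays, on the log2 scale (y axis), on each overexpression array (OE, left) and each control array (right), for chromosomes 7, 14 and 21 and for the other chromosomes. Overexpression arrays 1 and 3 lie highest for all 4 sets, and overexpression array 2 lies between −0.021 and 0.000.

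The unnamed transcripts were dimmer than genes with a symbol, and most of the calls came from the brighter ones. The median level of members was 5.93 on chromosome 7, 5.84 on chromosome 14 and 5.80 on chromosome 21, while genes with 1 symbol had medians of 6.79, 6.64 and 6.46 on the same chromosomes. These levels come from different probes and are given as a range of signal only. With the members of each chromosome in 3 equal classes by mean level, 19 of the 23 rises of chromosome 21 lay in the brightest class of 88, whose median difference was 0.16. On chromosome 14 the classes from dim to bright held 4, 10 and 23 of the rises, and on chromosome 7 they held 4, 13 and 24. Among unnamed transcripts elsewhere the same classes held 64, 75 and 213 of 352. The brightest class thus held the most calls on all 3 chromosomes and elsewhere.

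**Figure D3:**
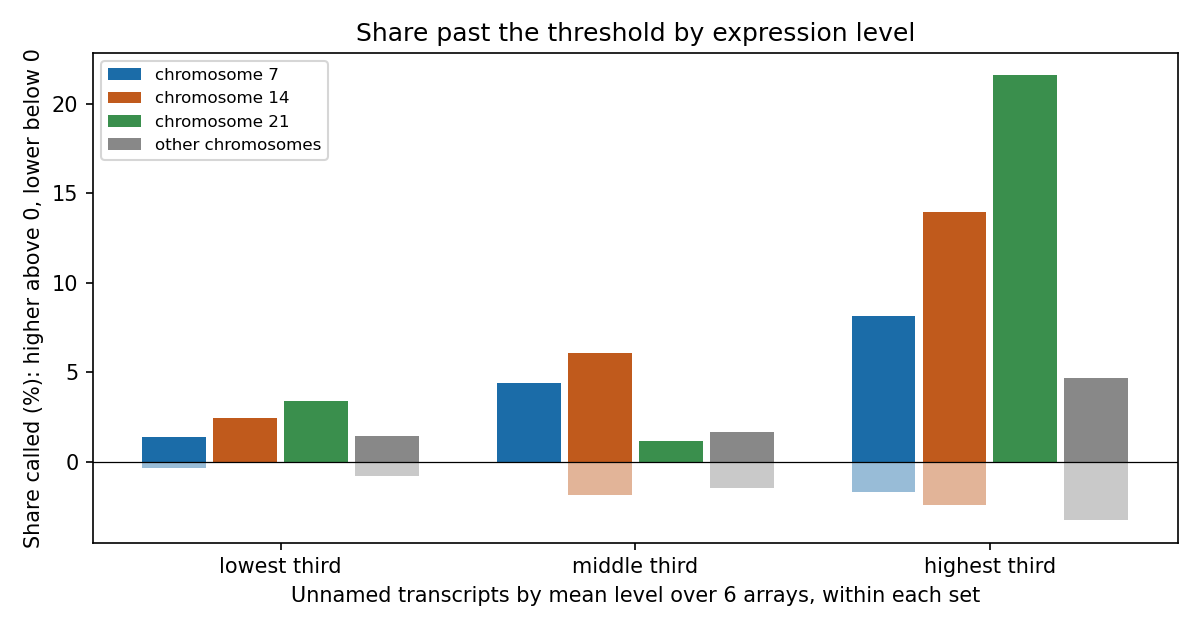
Share of unnamed transcripts called at an adjusted p under 0.05, in percent (y axis; higher above 0, lower below 0 in pale bars), in 3 equal classes by mean level within each set (x axis). In the brightest class the share called higher was 21.6% on chromosome 21, 13.9% on chromosome 14 and 8.14% on chromosome 7, against 4.71% on the other chromosomes.

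The level condition bears on a few calls. It kept 10 members only through the overexpression arrays, 6 of which were called higher, and 2 only through the control arrays, 1 of which was called lower. A member that passes in this way has to differ. Just inside the condition on chromosome 7, TC07002228.hg.1 read 5.09, 5.08 and 5.02 on the overexpression arrays, against 4.83, 4.87 and 4.91 on the control arrays. Just outside it, TC07002899.hg.1 read 5.03, 4.85 and 4.98 on the overexpression arrays, against 4.80, 5.30 and 5.15 on the control arrays. On chromosome 14, TC14000831.hg.1 lay just inside with means of 4.99 and 4.93 in overexpressing and control cells, and TC14000005.hg.1 just outside with 4.93 and 4.93. On chromosome 21, TC21000419.hg.1, between KCNE1 and RCAN1, lay just inside with 5.08 and 4.95 in overexpressing and control cells, and TC21000776.hg.1 just outside with 5.02 and 4.95.

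The greatest rise on chromosome 7 was that of TC07001315.hg.1, between MPLKIP, a gene mutated in a form of trichothiodystrophy, and INHBA, which encodes the inhibin beta A subunit of activin A. It read 6.42, 6.95 and 6.23 on the overexpression arrays, against 5.02, 4.78 and 5.63 on the control arrays. All overexpression values lay above all control values, and the difference was 1.39 ± 0.24 (SE), or 2.62-fold (limma adjusted p = 0.0201). Its neighbour MPLKIP differed by 0.21, which did not pass (adjusted p = 0.247).

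TC07000215.hg.1, between FKBP9, a peptidyl-prolyl isomerase of the endoplasmic reticulum, and BBS9, a subunit of the BBSome of cilia, read 6.83, 6.52 and 6.40 on the overexpression arrays, against 5.79, 5.81 and 5.09 on the control arrays. The groups did not overlap, and the difference was 1.02 (2.02-fold, limma adjusted p = 0.0290). BBS9 differed by 0.24 (adjusted p = 0.111). The other 2 large rises lay in the remaining block and have no neighbours here. TC07002381.hg.1 was higher by 0.82 (adjusted p = 0.0227), with 7.34, 7.67 and 7.83 on the overexpression arrays, against 6.61, 7.05 and 6.72 on the control arrays. TC07003171.hg.1 had a smaller difference of 0.64 and a tighter spread: 9.34, 9.38 and 9.24 on the overexpression arrays, against 8.65, 8.72 and 8.65 on the control arrays (adjusted p = 0.00276). It was also called without each array in turn and by the ordinary test (adjusted p = 0.0418).

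The fall of TC07003064.hg.1 was the largest in size among all 13 falls past the threshold. This bright transcript of the remaining block read 11.2, 11.4 and 11.4 on the overexpression arrays, against 12.6, 12.7 and 12.1 on the control arrays. The groups did not overlap, and the difference was −1.12 ± 0.15 (SE), or 2.18-fold lower (limma adjusted p = 0.00730). It was called without each array in turn, with differences of −1.30 to −1.01. TC07002463.hg.1 fell by 0.65 (adjusted p = 0.0247), at 10.08, 10.20 and 9.83 on the overexpression arrays, against 10.64, 10.89 and 10.53 on the control arrays. TC07003061.hg.1 fell by 0.55 (adjusted p = 0.0295). All 6 falls on chromosome 7 lay in the remaining block.

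Rises on chromosome 14 were led by TC14002001.hg.1 of the remaining block. It read 6.48, 6.54 and 6.66 on the overexpression arrays, against 5.59, 5.38 and 5.62 on the control arrays. The groups did not overlap, and the difference of 1.03 ± 0.08 (SE) was about a doubling, 2.04-fold (limma adjusted p = 0.00171). It was called without each array in turn and by the ordinary test (adjusted p = 0.0488). TC14001604.hg.1, also of the remaining block, read 8.94, 8.98 and 8.92 on the overexpression arrays, against 8.16, 8.07 and 8.35 on the control arrays. Its difference of 0.76 (adjusted p = 0.00387) also passed without each array.

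TC14001418.hg.1 lay between GALC, the lysosomal enzyme that degrades galactosylceramide, and KCNK10, a background potassium channel. It read 5.75, 5.20 and 5.48 on the overexpression arrays, against 4.89, 4.19 and 4.49 on the control arrays, so that no control value exceeded its array median and the member was kept through the overexpression arrays alone. The difference was 0.95 (adjusted p = 0.0310). TC14001967.hg.1 was higher by 0.82 (adjusted p = 0.0357), at 10.43, 10.40 and 10.51 on the overexpression arrays, against 9.49, 9.32 and 10.07 on the control arrays.

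The greatest falls on chromosome 14 lay in the first and second blocks. TC14000595.hg.1, between LINC02318 and TUNAR, a noncoding RNA known from neural differentiation, averaged 5.49 ± 0.08 in overexpressing cells and 6.18 ± 0.20 in control cells (SD, n = 3 each), with no overlap (difference −0.70, limma adjusted p = 0.0116). TC14000925.hg.1, between the olfactory receptor genes OR10G3 and OR10G2, read 6.64, 6.64 and 6.63 on the overexpression arrays, against 7.08, 7.36 and 7.30 on the control arrays (difference −0.61, adjusted p = 0.00730). The nearest tested gene with a symbol went the other way: METTL3, the catalytic subunit of the RNA N6-adenosine methyltransferase, rose by 0.60 (adjusted p = 0.00691). TC14000242.hg.1, next to the somatostatin receptor gene SSTR1, fell by 0.50 (adjusted p = 0.0306), while SSTR1 itself differed by 0.04 (adjusted p = 0.768).

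Of the greatest rises on chromosome 21, those of TC21000773.hg.1, TC21000957.hg.1 and TC21000805.hg.1 lay in the remaining block. TC21000773.hg.1 read 6.61, 6.56 and 6.65 on the overexpression arrays, against 5.90, 5.81 and 5.38 on the control arrays (difference 0.91, limma adjusted p = 0.00974). TC21000957.hg.1 read 8.30, 8.45 and 8.46 on the overexpression arrays, against 7.45, 7.40 and 7.72 on the control arrays. Its difference of 0.88 ± 0.10 (SE; adjusted p = 0.00435) passed without each array in turn. TC21000805.hg.1 was higher by 0.78 (adjusted p = 0.0306), and its lowest overexpression value, 6.61, lay above its highest control value, 6.30.

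The other named rise, TC21000019.hg.1, is the profile that 34 clusters share. It read 7.32, 6.99 and 7.13 on the overexpression arrays, against 6.55, 6.11 and 6.71 on the control arrays (difference 0.69, limma adjusted p = 0.0424). The closest fall to the threshold was TC21000447.hg.1, between DSCR4 and ERG, an ETS transcription factor gene. It read 5.28, 5.17 and 5.09 on the overexpression arrays, against 5.41, 5.52 and 5.40 on the control arrays (difference −0.27, adjusted p = 0.0711), with no overlap between the groups.

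**Figure D4:**
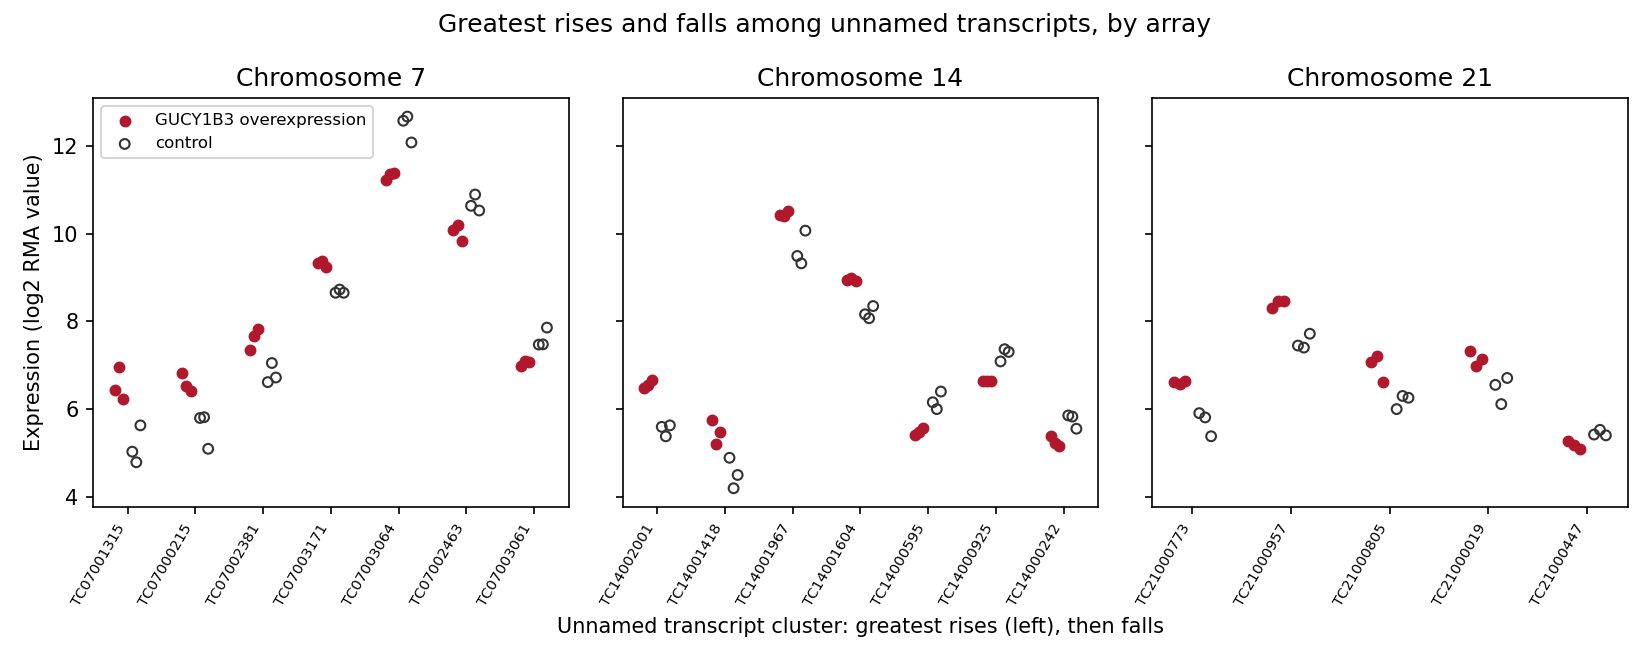
Expression (log2 RMA value, y axis) of the unnamed transcripts with the greatest rises and then the greatest falls on each chromosome, with overexpression arrays as filled and control arrays as open circles. The groups do not overlap for any of the transcripts shown, and the TC21000447 difference on chromosome 21 is the only one that did not pass the threshold.

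Of the 19 transcripts named by the rule that passed the threshold, 6 were called without each of the 6 arrays (TC07003171.hg.1, TC07003064.hg.1, TC14002001.hg.1, TC14001604.hg.1, TC14000925.hg.1 and TC21000957.hg.1), and none changed sign. The others lost the call without at least 1 array. TC07001315.hg.1 lost it without overexpression array 1, overexpression array 2 or control array 1, with an adjusted p of up to 0.0780. TC14000595.hg.1 and TC21000773.hg.1 lost it without overexpression array 1 or 2, with an adjusted p of up to 0.0654 and 0.0564. TC07002381.hg.1 lost it without overexpression arrays 2 or 3 or control array 1 (up to 0.100), and TC21000805.hg.1 without overexpression arrays 1 or 2 or control arrays 1 or 2 (up to 0.127). TC07000215.hg.1 (up to 0.119) and TC07003061.hg.1 (up to 0.124) lost it without any single overexpression array or control array 1, and TC14001418.hg.1 (up to 0.120) without any single overexpression array or control array 2. TC07002463.hg.1, TC14001967.hg.1, TC14000242.hg.1, TC21000019.hg.1 and TC21000887.hg.1 lost it without any single array other than control array 3, with an adjusted p of up to 0.0954, 0.126, 0.119, 0.159 and 0.100.

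By the ordinary test, 3 of the 19 passed (TC07003171.hg.1, TC14002001.hg.1 and TC21000887.hg.1). The adjusted p of that test was 0.105 for TC07003064.hg.1, 0.0623 for TC14001604.hg.1, 0.0827 for TC14000925.hg.1 and 0.0745 for TC21000957.hg.1, which had passed without each array, and 0.114 to 0.217 for the other 12. Under the 10 other settings tried, the ordinary test included, TC21000019.hg.1 lost its call in 6, TC14001967.hg.1 in 5, TC21000805.hg.1 in 4 and TC21000887.hg.1 in 3. The others lost theirs in at most 2. For TC07001315.hg.1 and TC14001418.hg.1 this is of 9 settings, because the condition on all 6 arrays left them out.

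Of the 2 brightest members of each chromosome, 1 in all passed the threshold. TC07001932.hg.1, between WEE2-AS1 and PRSS37, averaged 13.64 ± 0.08 in overexpressing cells and 13.62 ± 0.06 in control cells (SD, n = 3 each), and TC07002772.hg.1 averaged 13.42 ± 0.03 in overexpressing cells and 13.36 ± 0.02 in control cells. Neither passed (limma adjusted p = 0.946 and 0.630). The values of TC07001932.hg.1 were shared by 5 clusters coded to chromosomes 2, 4, 7 and 9, so its signal cannot be placed on chromosome 7. TC14001108.hg.1, near the DNA polymerase epsilon subunit gene POLE2, averaged 13.77 ± 0.03 in overexpressing cells and 13.58 ± 0.15 in control cells (limma adjusted p = 0.241). TC14000548.hg.1, next to TDP1, a DNA repair gene, averaged 12.54 ± 0.02 in overexpressing cells and 12.48 ± 0.05 in control cells, while TDP1 rose by 0.29 (adjusted p = 0.0476). On chromosome 21, TC21000762.hg.1 averaged 11.84 ± 0.03 in overexpressing cells and 11.66 ± 0.16 in control cells (adjusted p = 0.288). TC21000887.hg.1 was the one that passed, at 11.49, 11.57 and 11.51 on the overexpression arrays, against 11.24, 11.21 and 11.23 on the control arrays (difference 0.30, adjusted p = 0.0241).

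The most variable members among the controls did not pass the threshold. TC21000280.hg.1, between the pseudogenes CYP4F29P and ANKRD20A11P, read 7.28, 6.57 and 6.18 on the overexpression arrays, against 5.61, 6.15 and 4.63 on the control arrays. Its difference of 1.21 was among the largest of chromosome 21, but the control arrays spanned more than a factor of 2 and the adjusted p was 0.128. TC14001832.hg.1 read 7.54, 7.67 and 7.91 on the overexpression arrays, against 9.17, 9.11 and 7.02 on the control arrays, so that control array 3 lay below and the other 2 control arrays above every overexpression array. Its difference was −0.73 (adjusted p = 0.509). TC07000365.hg.1 read 10.06, 9.98 and 10.09 on the overexpression arrays, against 9.91, 10.35 and 9.09 on the control arrays, and the difference of 0.26 (adjusted p = 0.679) turned to −0.09 without control array 3. It shares these 6 values with the members TC07001382.hg.1 and TC07001424.hg.1, so the 3 are 1 measurement.

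A microRNA gene adjoined 1 of the transcripts called without each array. TC07001868.hg.1 (chosen after its values were seen) lies between KLF14 and MIR29A in the second block, with MIR29A as the next identifier. The microRNAs of MIR29A, which repress collagen and other matrix mRNAs, are shown because this is the only called member with a microRNA gene next to it. RefSeq places the hairpin on the minus strand at chr7:130876747-130876810 of GRCh38.p14, and the capitals mark the seed, bases 2 to 8:
hsa-miR-29a-3p: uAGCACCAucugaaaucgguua
hsa-miR-29a-5p: aCUGAUUUcuuuugguguucag
TC07001868.hg.1 read 8.61, 8.72 and 8.54 on the overexpression arrays, against 8.08, 8.10 and 8.06 on the control arrays, a difference of 0.54 with no overlap (limma adjusted p = 0.00540). The MIR29A cluster averaged 7.13 ± 0.26 in overexpressing cells and 6.47 ± 0.36 in control cells (SD, n = 3 each), a difference of 0.66 that did not pass (adjusted p = 0.0909). Whether both read 1 precursor transcript was not tested. In all, 14 members on chromosome 7, 9 on chromosome 14 and 3 on chromosome 21 stood next to a microRNA gene, and none of the others was called. Over all transcript clusters tested, 3.54% were called higher and 2.29% lower. With so few members, nothing is read from this 1 call about places next to microRNA genes.

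Other transcripts called without each array, also chosen after their values were seen, had these neighbours. TC14000165.hg.1, between TSSK4 and NFATC4, a calcineurin-regulated transcription factor gene, read 7.21, 7.30 and 7.28 on the overexpression arrays, against 6.58, 6.58 and 6.65 on the control arrays (difference 0.66, limma adjusted p = 0.00188). TC07001033.hg.1, between DPP6 and PAXIP1-DT, read 6.09, 6.11 and 6.08 on the overexpression arrays, against 5.67, 5.71 and 5.63 on the control arrays (difference 0.42, adjusted p = 0.00723). TC21000287.hg.1, between HSPA13 and NRIP1, a corepressor of nuclear receptors, read 5.35, 5.38 and 5.43 on the overexpression arrays, against 4.76, 4.91 and 4.85 on the control arrays (difference 0.55, adjusted p = 0.00478). In each of these the groups did not overlap, and the control values of TC21000287.hg.1 lay below the array medians.

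Along the identifier order the positive differences were spread out. In windows of 25 consecutive members, the median difference was above 0 in 30 of 34 windows on chromosome 7 (−0.03 to 0.10), in 18 of 19 on chromosome 14 (−0.05 to 0.14) and in 9 of 9 on chromosome 21 (0.003 to 0.17). Windows of the remaining blocks are included, and their order along the chromosome is not known. Windows on the other chromosomes were not counted. There, 58.5% of unnamed transcripts had a positive difference too, so these counts do not set the 3 chromosomes apart. The window with the lowest median on chromosome 14 ran from C14orf39 to ERG28 in the second block, and its highest from LINC02297 to PRKD1. On chromosome 7 the lowest lay between LINC00174 and DLX6-AS1. The highest on chromosome 21 lay in the remaining block (0.17), with 5 of 25 members called higher.

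The remaining blocks held most of the rises: 31 of 41 on chromosome 7, 23 of 37 on chromosome 14 and 18 of 23 on chromosome 21. They also held most of the members on chromosomes 7 (515 of 884) and 21 (168 of 264), but not on chromosome 14 (237 of 493). As a share of members, 6.02% of the remaining block of chromosome 7 were called higher, against 3.80% of its first block and 1.62% of its second block. In the same order the shares were 9.71%, 6.15% and 4.76% on chromosome 14, and 10.7%, 5.13% and 5.26% on chromosome 21. Unnamed transcripts of the other chromosomes had 2.75%, 2.40% and 2.63% in these blocks, and all transcript clusters tested had 3.54%. The second block of chromosome 7 thus lay below the same block elsewhere and below the whole table. On chromosome 14 the remaining block of 237 members was also where calls stood side by side. For 14 of its 23 rises a member on either side was called higher too, with runs of at most 3 (TC14001675.hg.1 to TC14001678.hg.1). On chromosome 7 this held for 2 of 31 rises and on chromosome 21 for 4 of 18. Whether neighbouring identifiers there read 1 transcript was not tested.

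The longest run of members with a positive difference was 14 on chromosome 14, in the second block between LINC02297 and the olfactory receptor gene OR6S1, with 3 of the 14 called. The runs were 12 members on chromosome 7 and 11 on chromosome 21. The run on chromosome 14 begins with members that share the profile of TC14000023.hg.1, so it holds fewer measurements than members.

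**Figure D5:**
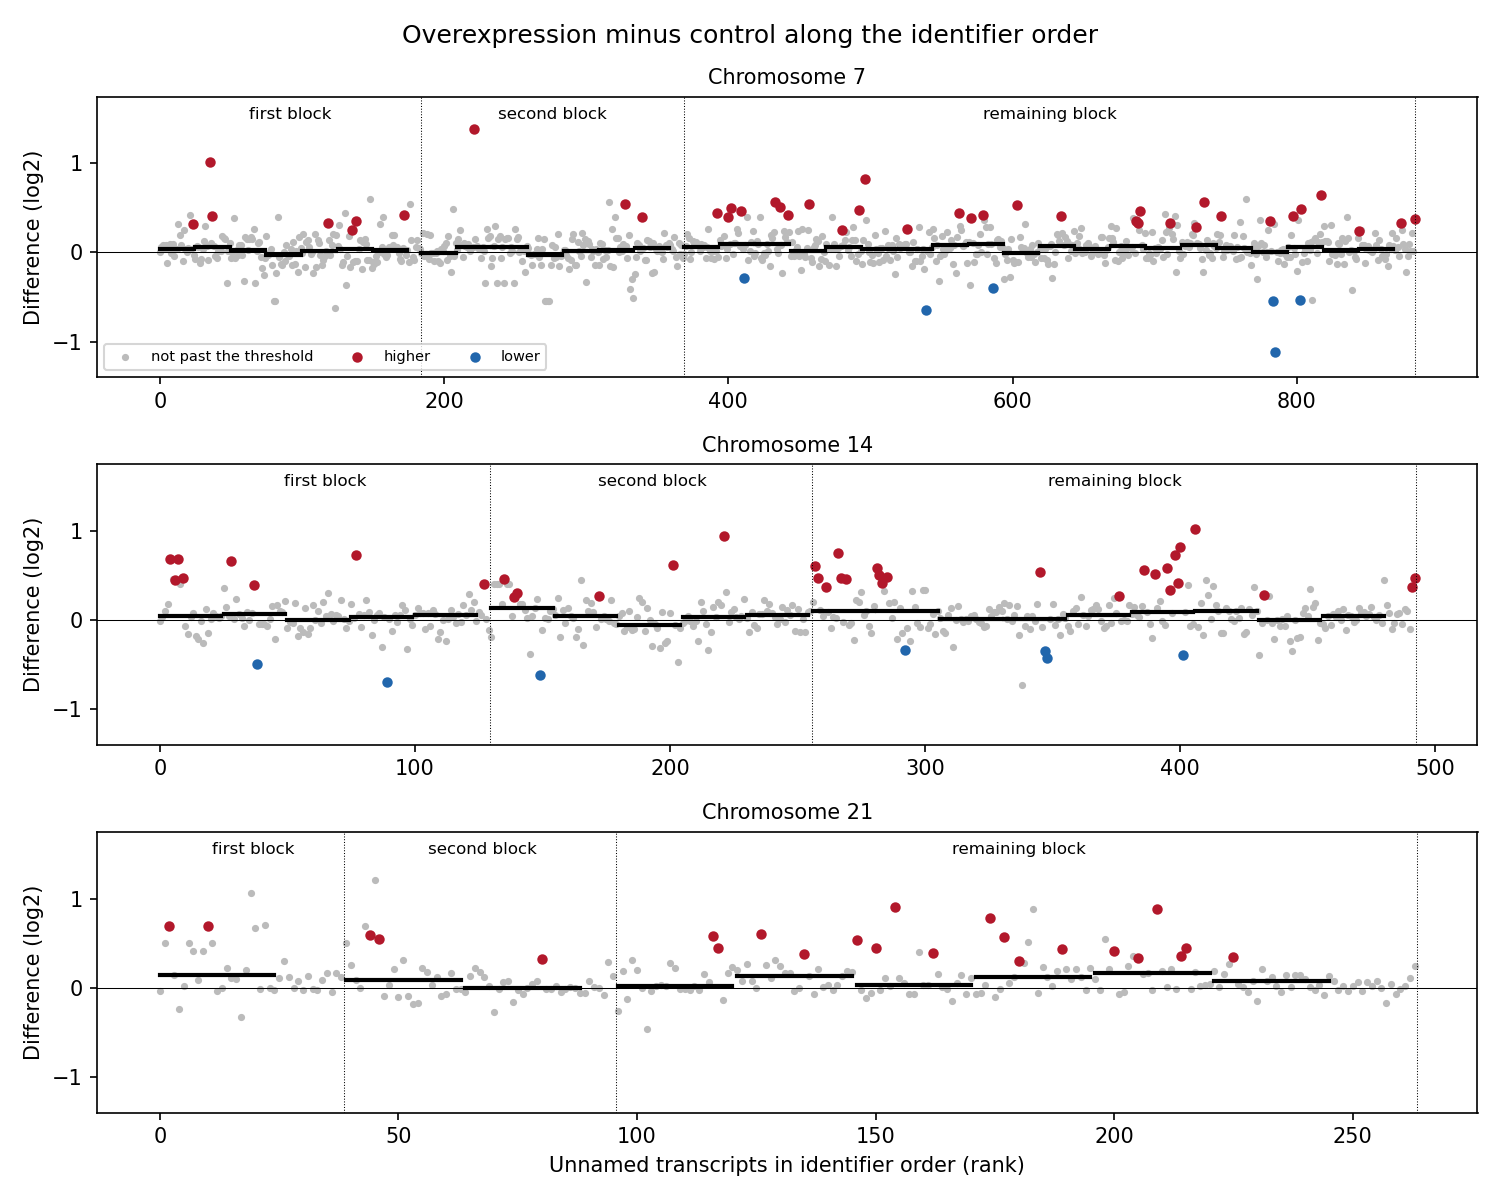
Difference of each unnamed transcript, overexpression minus control on the log2 scale (y axis), in identifier order (x axis, rank) on chromosomes 7, 14 and 21; red points were called higher, blue points lower, grey points did not pass, black bars are medians over 25 members and dotted lines part the blocks. The black bars lie above 0 in 30 of 34, 18 of 19 and 9 of 9 windows, and no blue point appears on chromosome 21.

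Members followed their nearest gene with a symbol only loosely. For members of the first and second blocks, the nearest tested gene was taken, however many identifiers away. Pearson's r between the member's difference and the gene's was 0.17 on chromosome 7 (n = 369), 0.15 on chromosome 14 (n = 256) and 0.04 on chromosome 21 (n = 96), against 0.02 elsewhere (n = 5686). Where the gene was the adjacent identifier, r was higher: 0.25 (n = 186), 0.25 (n = 118) and 0.12 (n = 49) in the same order, against 0.04 elsewhere (n = 2871). Several members share 1 neighbour and all share the same 6 arrays, so these are descriptions across transcripts. The sign was the same for 62.3% of members on chromosome 7, 61.3% on chromosome 14 and 51.0% on chromosome 21, against 51.3% elsewhere. Of the genes with 1 symbol, 72.7%, 69.6% and 84.7% had a positive difference on chromosomes 7, 14 and 21, and most members did too. Signs can match through this lean alone, and its part was not computed, so these shares do not measure a relation. Where the gene itself was called higher, so were 2 of 31 members on chromosome 7, 8 of 56 on chromosome 14 and 1 of 14 on chromosome 21, against 6 of 159 elsewhere. Of all members in the first and second blocks, 3.80% and 1.62% were called higher on chromosome 7. The shares were 6.15% and 4.76% on chromosome 14, and 5.13% and 5.26% on chromosome 21. Over all transcript clusters tested the share was 3.54%, and with so few members nothing is read from these counts.

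Long noncoding genes that do have a symbol were counted beside the members. Over all transcript clusters tested, 3.54% were higher and 2.29% lower, and with so few genes nothing is read from the counts. Of 31 tested on chromosome 7, 0 were called in either direction by limma, with a median difference of 0.03. Of 28 on chromosome 14, 1 rose and 2 fell (median 0.04): DHRS4-AS1, antisense to the DHRS4 dehydrogenase gene, rose by 0.45 (adjusted p = 0.0150), while LINC03033 fell by 0.56 (adjusted p = 0.0155) and LINC00517 fell by 0.40 (adjusted p = 0.0242). Of 24 on chromosome 21, 2 rose and 0 fell (median 0.07). TSPEAR-AS2 read 6.23, 6.11 and 6.18 on the overexpression arrays, against 5.51, 5.61 and 5.38 on the control arrays (difference 0.67, adjusted p = 0.00466), and B3GALT5-AS1 rose by 0.38 (adjusted p = 0.0444).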

How the data were processed

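The values are the log2 RMA output of Affymetrix Expression Console that the authors deposited, per the submitters' processing notes; the software version and the array's build are not given in the sources used here. RMA corrects background, quantile-normalizes arrays and summarises probes, so differences are relative to the whole array. Of 70523 features, 67505 transcript clusters were used: 42192 with no symbol, 23772 with 1 and 1541 with several. The other 3018 features were not used. Symbols were updated through RefSeq (GRCh38.p14), through the Entrez identifier (21488 clusters), the symbol (1974) or a synonym (306); the other 4 were left as listed. Neighbours and order come from the identifiers and RefSeq order.

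Differences between overexpression and control arrays were tested with lmFit and eBayes of limma 3.58.1, without covariates, in R 4.3.3, over 33345 transcript clusters above the array median on at least 3 of 6 arrays, with p-values adjusted by Benjamini-Hochberg over all of them and called under 0.05 (4 residual and 3.83 prior degrees of freedom). The fit was tested on simulated data. Python 3.11.15, pandas 2.3.3, numpy 2.4.6 and matplotlib 3.10.9 were used for descriptions and plots. Differences are overexpression minus control. The number of arrays limits the precision.

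The members, chromosomes and lists were chosen with earlier results of these data known. Named transcripts are, per chromosome, the 4 greatest rises and 3 greatest falls past the threshold with no overlap between groups (or the fall with the smallest p), the 2 brightest, the one with the widest control spread, and those just inside and outside the level condition. Any other is marked as picked with its values in view. Long noncoding genes were taken by symbol pattern, and the protein-coding CROT, which the pattern caught, was left out.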

Additional observations from a re-analysis of the deposited data

How the results depend on the processing

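Main counts were 41 higher and 6 lower on chromosome 7, 37 and 7 on chromosome 14 and 23 and 0 on chromosome 21. With each array centred on its median, 27 were higher on chromosome 7. Centring on the chromosome's own tested transcripts gave 17 higher and 10 lower on chromosome 7, 17 higher on chromosome 14, and 9 higher and 1 lower on chromosome 21. It turned the medians to −0.0393, −0.0291 and −0.0362. These are relative to the median level of all tested transcripts of the chromosome, unnamed ones included, and do not compare members with genes that have a symbol. Fitting unnamed transcripts alone gave 23, 22 and 13 higher, and 3 lower on chromosome 14. The ordinary test gave 5, 4 and 2 higher, 2 lower on chromosome 7 and 0 on chromosome 14. Leaving out 1 array gave 7 to 77 higher and 2 to 32 lower on chromosome 7, 6 to 65 and 1 to 22 on chromosome 14, and 4 to 45 and 0 to 1 on chromosome 21; over the whole table it gave 199 to 2428 higher and 169 to 1916 lower. The medians were then 0.03 to 0.07, 0.03 to 0.07 and 0.05 to 0.09. With no level condition the chromosome 21 median was 0.0323. Quantile normalization, cyclic loess, the stricter condition (all 6 arrays) and the trended, robust fit kept each chromosome's count within 1.5 times, as did leaving out repeated values (chosen after seeing the data). Over the whole table, centring gave 816 higher and 733 lower, against 1181 and 765. No named call changed sign. Uncalled TC07001932.hg.1 turned to −0.00771 under centring, −0.0326 under quantile normalization and −0.0700 under chromosome centring, and lay between −0.0208 and 0.0553 when 1 array was left out. TC07002772.hg.1 turned to −0.0249 and TC14000548.hg.1 to −0.0189 under chromosome centring. TC07000365.hg.1 lay between −0.0868 (without control array 3) and 0.545 (without control array 2). The causes were not tested.

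With the replicate number as a block, 15, 20 and 14 members were higher on chromosomes 7, 14 and 21, and 3 were lower on chromosome 14; of all transcript clusters tested, 432 were higher and 310 lower. The labels do not say whether the numbers pair the arrays. Deviations of same-numbered arrays correlated at 0.19, −0.03 and −0.14, and not every array correlated best with its own number. The deviations within a group of 3 sum to 0, so these values cannot settle it. The members' median levels were 5.93, 5.84 and 5.80, beside array medians of 4.97 to 5.03; what this signal over background allows to be called was not tested.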
